A study of Mus musculus with 2 samples.

Results

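The mitochondrial ribosomal protein genes were taken as the protein-coding genes whose symbols begin with Mrpl or Mrps followed by a number, which gave 78 of the 21938 protein-coding genes of the annotation. Of these, 51 encode proteins of the large subunit, counting Mrps30 and Mrps18a, which sit there despite their names. The other 27 belong to the small subunit. By textbook assignment, 46 proteins have a counterpart in bacterial ribosomes and 32 are particular to mitochondria. Mrps36 was kept by its symbol, although its protein is now placed in the oxoglutarate dehydrogenase complex.

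Mitochondrial ribosomes make the few proteins that are encoded in mitochondrial DNA, which are core subunits of the respiratory chain and the ATP synthase. Their RNA comes from the mitochondrial genome, while every protein of the particle is encoded in the nucleus, made in the cytosol and imported. In erythroid progenitors mitochondria also carry out the first and last steps of haem synthesis, and they are removed as red cells mature.

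Accessibility was read from ATAC-seq, which uses a transposase to tag DNA that is not wrapped up in nucleosomes. The cells were CFU-E, late red cell progenitors, which were primary cells of C57BL/6J mice, male, adult and 5 to 6 weeks old, and no other genotype or treatment is given in the labels. There were 2 libraries of 50000 cells each, labelled as biological replicates 1 and 2 and carrying 1 donor identifier. They form 1 group, so there is no comparison between conditions, and since the lists do not show that the libraries are independent, their values are given side by side with no SD. The list for both libraries together, here the series list, held 24394 accessible regions after overlapping records were merged. Replicate 1 alone gave 18685 regions and replicate 2 alone gave 17854. The lineage of the cells, and not their stage, was checked against marker genes. All 14 erythroid markers, among them Gata1, Klf1, Epor and Alas2, had a promoter region in the series list. In each replicate's list 13 of them had one. Of 14 markers of lymphoid, myeloid, mast, endothelial and liver cells, 0 had one in these lists (exact 95% upper limit 23.2%). The share over protein-coding genes outside the mitochondrial ribosomal set was 45.6% in the series list. Peak lists do not hold read depth, and the intervals given cover the counting of genes or regions alone. A lower fold can come from fewer cells with an open site, less access per cell or a higher local background. Peak lists cannot tell these apart.

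A promoter region was an accessible region within 1 kb of any annotated start of the gene. The fold of a region is the authors' own enrichment over local background at its strongest record, and genes are compared by it only within 1 list. Values of the same gene in several lists are set side by side. The DNA of the promoters at both ends of the scale is shown here for reference, as the 120 bp that lie upstream of the principal start on mm10, read from GRCm38.p6. Each stretch is written 5′ to 3′ in the direction of the gene, with capitals for matches to the motifs that are described further on. The first 3 are the strongest promoters whose upstream stretch holds no annotated exon, at folds of 21.7, 17.8 and 17.1. They are Mrps33 at chr6:39810989-39811108 on the minus strand, Mrps18a at chr17:46110866-46110985 on the plus strand and Mrpl42 at chr10:95501941-95502060 on the minus strand. The other stretches belong to Mrpl3 at chr9:105053119-105053238 and Mrpl23 at chr7:142532892-142533011, both on the plus strand, at which the series list held no promoter region.
Mrps33: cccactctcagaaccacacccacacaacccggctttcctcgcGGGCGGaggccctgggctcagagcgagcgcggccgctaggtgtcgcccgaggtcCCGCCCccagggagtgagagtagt
Mrps18a: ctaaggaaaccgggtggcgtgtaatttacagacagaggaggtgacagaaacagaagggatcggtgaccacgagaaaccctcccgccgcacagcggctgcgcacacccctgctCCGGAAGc
Mrpl42: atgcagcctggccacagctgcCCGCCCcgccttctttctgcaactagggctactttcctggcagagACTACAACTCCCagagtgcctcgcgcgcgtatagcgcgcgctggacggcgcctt
Mrpl3: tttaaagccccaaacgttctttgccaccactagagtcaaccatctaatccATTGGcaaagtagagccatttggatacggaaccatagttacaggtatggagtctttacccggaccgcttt
Mrpl23: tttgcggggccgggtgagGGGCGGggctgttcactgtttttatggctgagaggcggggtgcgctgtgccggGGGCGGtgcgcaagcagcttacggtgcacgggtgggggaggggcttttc
The capitals mark SP and KLF matches in Mrps33, Mrpl42 and Mrpl23, an ETS match in Mrps18a, a ZNF143 match in Mrpl42 and an NFY match in Mrpl3. Motif counts given further on use windows around the summits of series-list promoter regions, so the matches at Mrpl3 and Mrpl23 are not in them.

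Nearly every mitochondrial ribosomal protein gene had an open promoter in CFU-E. A promoter region was present in the series list at 76 of the 78 genes, or 97.4% (exact 95% interval 91.0 to 99.7%), against 9973 of the 21860 other protein-coding genes, or 45.6%. All 27 small-subunit genes had one, as did 49 of the 51 large-subunit genes. All 32 genes of proteins particular to mitochondria had one, as did 44 of the 46 genes with a bacterial counterpart. The genes without one, Mrpl3 and Mrpl23, both encode large-subunit proteins that are conserved from bacteria. No test was made of the gene list against other genes, so the shares stand as descriptions.

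The share was high in each peak list used. In replicate 1, 75 of the 78 genes had a promoter region, or 96.2%, against 43.3% of other protein-coding genes. In replicate 2 it was also 75 genes, against 42.4% of other protein-coding genes. The conservative list, which rests on the repeat of peaks between the true replicates, gave 76 genes against 45.6% of others. The less strict overlap list gave all 78 genes against 51.9% of others. When the series list was restricted to its upper 50% of regions by fold, 68 genes (87.2%) still had a promoter region, against 37.2% of other genes.

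**Figure D1:**
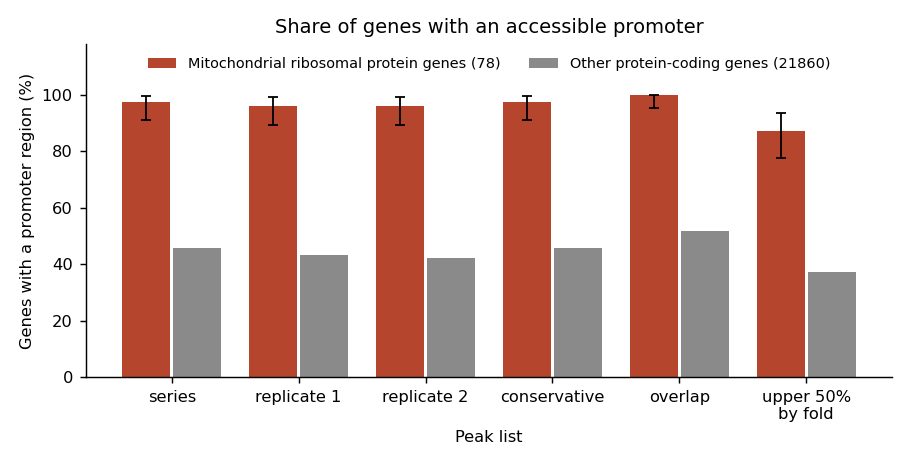
Share of genes (%) with a promoter region in each peak list, for the 78 mitochondrial ribosomal protein genes (red, with exact 95% intervals) and the 21860 other protein-coding genes (grey). The red bars lie between 87.2% and 100% and the grey bars between 37.2% and 51.9%.

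Base composition of the start differs between these genes and others and bears on the background. A start was called CpG-rich when the 501 bp around it held at least 50% G+C and a ratio of observed to expected CpG of at least 0.6. Such a start was present at 70 of the 78 genes (89.7%), against 49.6% of other protein-coding genes. Among the 10838 other genes with a CpG-rich start, 73.9% had a promoter region in the series list. The share of 97.4% over all 78 mitochondrial ribosomal protein genes lay above this narrower background too, by less. It was not worked out for the 70 genes with a CpG-rich start alone. Mrpl3 and Mrpl23 themselves had CpG-rich starts, with 54.1% and 66.5% G+C and CpG ratios of 0.794 and 0.855.

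A small set of genes differed between lists. Mrpl3, whose product lies near the peptidyl transferase centre, had a weak promoter region in the conservative and overlap lists, with a fold of 4.95 and a −log10 p of 13.4. The overlap lists of replicate 1 and replicate 2 held it at folds of 4.86 and 4.45, and the nearest region of the series list lay 60233 bp from its start. So a region at Mrpl3 was called in both libraries under the less strict rule and in the conservative list, and was missing from the series list. That list held promoters at lower folds, such as Mrps34 at 4.06. By −log10 p, its lowest value among the mitochondrial ribosomal protein genes was 18.4, above that of Mrpl3, while other protein-coding genes went down to 6.37. Mrpl23, whose product lines the exit of the peptide tunnel, was held only by overlap lists, at a fold of 3.05 in the list of both libraries and 3.18 in that of replicate 1. In replicate 2 no list used here held a region at its promoter.

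Mrps2, a small-subunit protein conserved in bacteria, had a region of 250 bp at a fold of 5.20 in the series list and 5.65 in replicate 1. It was missing from the thresholded list of replicate 2 and from the conservative list, and the overlap list of replicate 2 held it at 3.72. Mrps18c went against the pattern that weak promoters are the ones that differ. This gene encodes 1 of a set of 3 related proteins, of which Mrps18a sits in the large subunit and Mrps18b and Mrps18c in the small one. Its region had a fold of 17.6 in the series list and 16.5 in replicate 2, yet the thresholded list of replicate 1 held none there. The overlap list of replicate 1 did hold it, at a fold of 16.5 and a −log10 p of 112. The peak was thus called in replicate 1 under the less strict rule and was missing from its thresholded list.

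Promoter folds of these genes covered nearly the whole range of the genome, with their middle slightly above that of other genes. The median fold over the 76 promoters was 11.5 (95% interval of the median 10.5 to 12.9, quartiles 9.52 and 14.2), against 10.7 over the 9973 other promoters (quartiles 8.36 and 13.0). Other genes with a CpG-rich start had a median of 11. In replicate 1 the medians were 10.6 for the mitochondrial ribosomal protein genes and 10.4 for other genes, and in replicate 2 they were 10.7 and 10.4, so the gap was narrower within each library. Of the 76 genes, 27 (35.5%) lay above the upper quartile of other genes' folds and 11 (14.5%) below the lower quartile. The highest −log10 p of a gene's promoter regions had a median of 129 in both gene groups. Region widths were similar as well, with medians of 990 bp in the mitochondrial ribosomal protein genes and 942 bp in other genes.

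Median folds lay close together between the subunits and between the origins of the protein. Large-subunit genes had a median of 11.6 (n = 49, 95% interval 10.3 to 12.9) and small-subunit genes a median of 11.4 (n = 27, interval 9.44 to 14). Genes of proteins particular to mitochondria had a median of 11.4 (n = 32, interval 10.5 to 14.4), and those with a bacterial counterpart a median of 12 (n = 44, interval 9.82 to 12.9). Within each pair the median of either group lay inside the interval of the other, which does not show that the folds are alike. The small subunit held both the highest and the lowest promoter of the whole set.

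The strongest promoter by fold was that of Mrps33, a small-subunit protein particular to mitochondria. Its fold was 21.7 in the series list, with 19.2 in replicate 1 and 20.1 in replicate 2, and the highest fold at any other protein-coding gene of the series list was 21.5. Mrps18a followed with 17.8 over both libraries, 16.6 in replicate 1 and 15.2 in replicate 2. Mrps18c, described above, came next. Thus 2 of the 3 related Mrps18 genes ranked among the top 3, while the other one, Mrps18b, ranked among the lowest 5.

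Of the next genes, Mrpl37 had a fold of 17.1 over both libraries, 15.7 in replicate 1 and 16.5 in replicate 2. Mrpl42 had 17.1 over both libraries, 16.6 in replicate 1 and 14.8 in replicate 2. Both encode large-subunit proteins particular to mitochondria. Mrps35, a mitochondria-specific protein of the small subunit, had 16.7 over both libraries, 15.6 in replicate 1 and 14.8 in replicate 2. Mrpl35, the counterpart of a bacterial large-subunit protein, had 16.4, with 15.5 in replicate 1 and 14.5 in replicate 2. Mrps17 and Mrps9 have bacterial counterparts in the small subunit. Mrps17 had 16.3 over both libraries, 15.3 in replicate 1 and 14.6 in replicate 2. Mrps9 had 16.2 over both libraries, 14.5 in replicate 1 and 14.6 in replicate 2. Mrpl45, which lies at the tunnel exit and holds the ribosome to the inner membrane, had 16.2, with 15.1 in replicate 1 and 15.4 in replicate 2. The 10 highest promoters therefore came from both subunits and both origins, and each had a fold of at least 14.5 in every replicate whose thresholded list held it.

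At the low end, Mrps34 stood apart with a fold of 4.06 over both libraries, 3.98 in replicate 1 and 4.0 in replicate 2. This gene encodes a small-subunit protein particular to mitochondria, and in humans its loss impairs mitochondrial translation. Mrps2 came next with 5.20. Mrps18b had 5.88 over both libraries, 5.89 in replicate 1 and 5.62 in replicate 2. Mrps6, a small-subunit protein with a bacterial counterpart, had 6.34, with 6.61 in replicate 1 and 5.99 in replicate 2. Mrpl38 had 6.69, with 6.30 in replicate 1 and 6.77 in replicate 2. Among these 5, Mrpl38 is the only large-subunit gene. A low fold did not always mean a weak call, since the −log10 p was 115 at Mrps18b and 108 at Mrpl38, against 34.2 at Mrps34, 26.8 at Mrps6 and 18.4 at Mrps2.

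**Figure D2:**
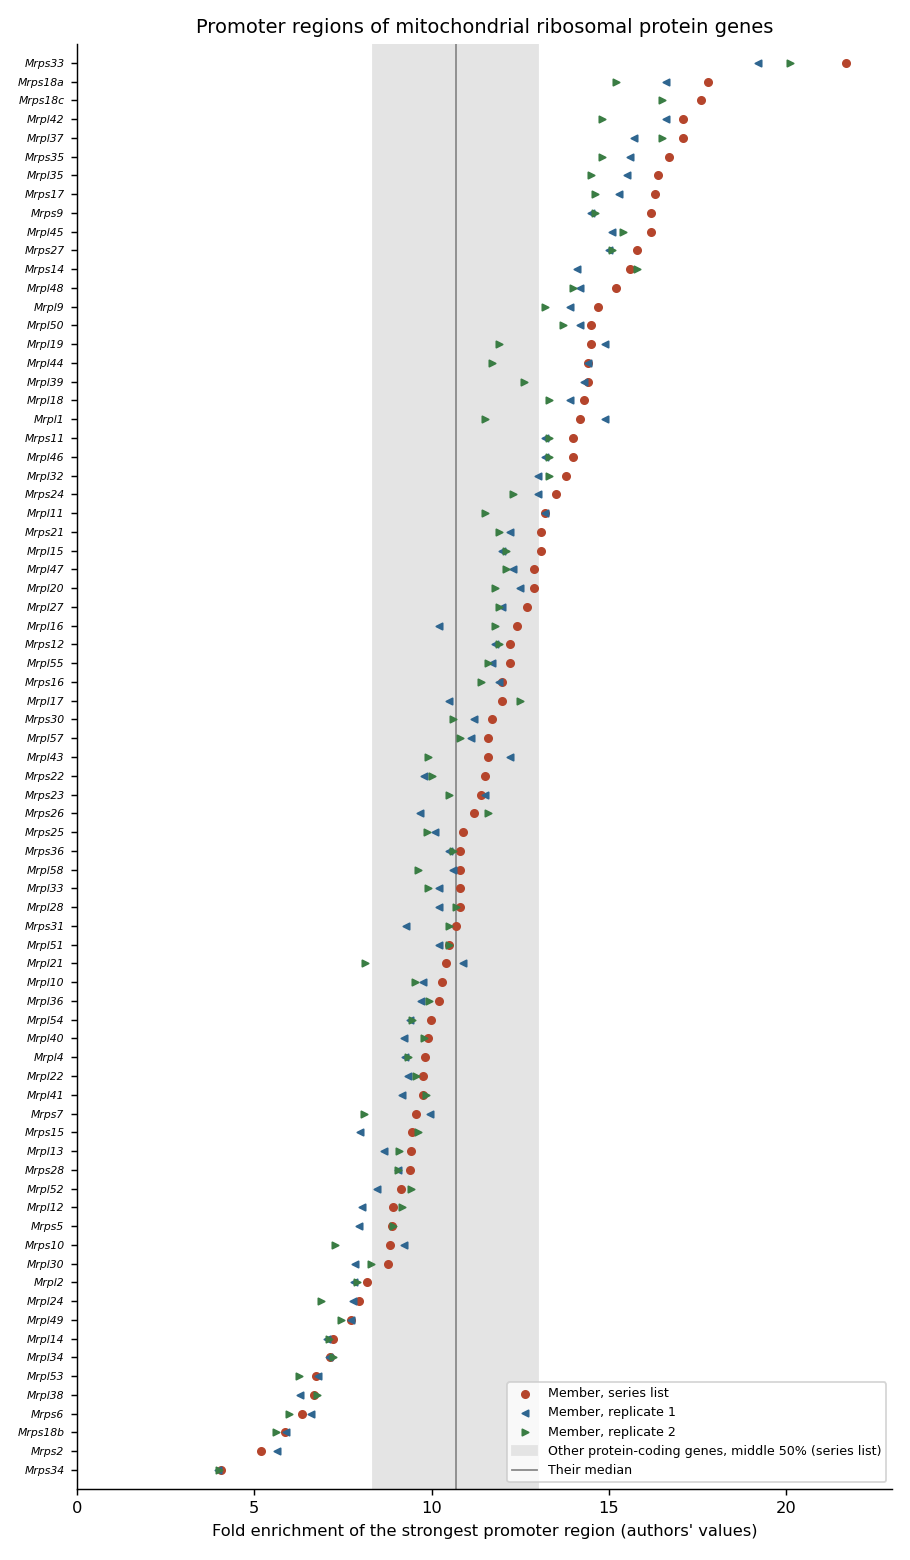
Fold enrichment (authors' values, x axis) of the strongest promoter region of each of the 76 genes with one, in the series list (red circles), replicate 1 (blue) and replicate 2 (green). The shaded band spans the quartiles of the other protein-coding genes, 8.36 to 13.0, and the genes run from 4.06 at Mrps34 to 21.7 at Mrps33.

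The libraries gave much the same order of promoters. A promoter region was present in both replicates' lists, with at least 1 bp of overlap, at 74 of the 76 genes that had one in either list (97.4%), against 94.8% of 9611 other protein-coding genes. Over these 74 genes the folds in replicate 1 and replicate 2 had a Pearson r of 0.93 and a Spearman rho of 0.93, against 0.94 and 0.94 over 9126 other genes. The points share the same pair of libraries and the same local base composition, so these are descriptions. Each list has its own scale, so ratios between the replicates are descriptions too. The fold was higher in replicate 1 at 37 of the 74 genes, against 4752 of the 9126 other genes. It differed by less than 1.25-fold at 71 of the 74 genes, against 8873 of the 9126 other genes. The largest gaps were at Mrpl21, with 10.9 in replicate 1 and 8.13 in replicate 2 (ratio 1.33), and at Mrps15, with 7.98 in replicate 1 and 9.62 in replicate 2 (ratio 0.829).

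The open site sat close to the start of these genes. The strongest summit lay a median of 28 bp from the nearest annotated start (95% interval 18 to 46 bp), against 57 bp in other protein-coding genes with a promoter region. It was within 50 bp of a start in 65.8% of the mitochondrial ribosomal protein genes and 46.0% of other genes, and within 200 bp in 93.4% and 81.2% of them. The summit was upstream of the nearest start in 78.9% of the mitochondrial ribosomal protein genes and 76.5% of other genes. A gene with more annotated starts has more chances of a near one, and these genes had fewer, with a median of 3.50 starts against 5.00 in other genes. Against the principal start alone the medians were 38 bp and 89 bp.

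**Figure D3:**
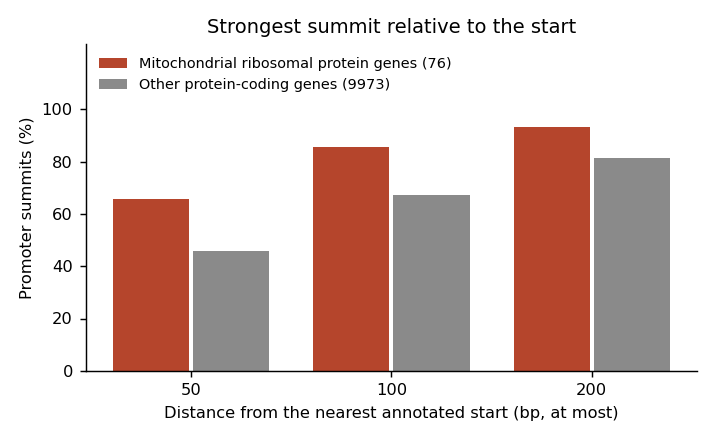
Share of genes (%) whose strongest promoter summit lies within 50, 100 or 200 bp of their nearest annotated start, for the mitochondrial ribosomal protein genes (red, n = 76) and other protein-coding genes (grey, n = 9973). The red bar is higher at each distance, 65.8% against 46.0% at 50 bp and 85.5% against 67.2% at 100 bp.

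Most of these genes had a single open promoter. More than 1 promoter region was present at 10 of the 76 genes (13.2%), against 25.6% of other genes. Fewer annotated starts give fewer chances of a second region, and these genes had a median of 3.50 starts against 5.00. Mrpl48 had the most regions, 4 at folds of 15.2, 10.9, 9.33 and 4.29 spread over its 10 annotated starts. At Mrpl34, whose protein has a bacterial counterpart, the stronger region at a fold of 7.13 had its summit 1248 bp upstream of the start, beside the neighbouring gene Abhd8. The region nearer the start of Mrpl34 had a fold of 6.96 and its summit at -260 bp. The choice between these regions of nearly equal fold sets the largest summit distance of the whole set.

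Many of these genes shared their open promoter with a neighbour. The promoter region of 35 of the 76 genes (46.1%, exact 95% interval 34.5 to 57.9%) also lay at a start of another protein-coding gene, against 26.4% of other genes with a promoter region. In 34 genes (44.7%) the neighbour was on the opposite strand, against 23.5% of other genes. The closest starts of such pairs were a median of 55.5 bp apart in the mitochondrial ribosomal protein genes and 105 bp in other genes. Fold and width were taken at each gene's strongest promoter region, which need not be the shared one, as at Mrpl48. Mitochondrial ribosomal protein genes with a shared region had a median fold of 10.5 (95% interval 9.76 to 12.9). Those without one had 12 (10.8 to 13.2), against 10.8 and 10.7 in other genes. The strongest region was wider at genes with a shared region in both gene groups. Medians were 1082 bp against 896 bp in the mitochondrial ribosomal protein genes and 1067 bp against 900 bp in other genes. ATAC-seq has no strand, so the opening of a shared region cannot be assigned to either gene.

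The neighbours named next were chosen after their values were seen, and neighbours were not counted by function. Mrps12, a protein of the decoding centre, shared a region of fold 12.2 with Sars2, the mitochondrial seryl-tRNA synthetase, with 172 bp between the closest starts. Mrpl43 shared one of fold 11.6 with Twnk, the helicase that copies mitochondrial DNA, at 116 bp. Mrps27, a pentatricopeptide repeat protein, shared one of fold 15.8 with Ptcd2, another protein of that family, at 81 bp. Mrpl36 and Mrpl47 were paired with Ndufs6 and Ndufb5, subunits of respiratory complex I. The closest starts lay 29 bp apart at Mrpl36 and 20 bp apart at Mrpl47, with transcripts that overlap at their starts.

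Further neighbours have other functions. Mrpl49 was paired with Fau, which encodes a cytosolic ribosomal protein, and Mrpl18 with Tcp1, a subunit of the cytosolic chaperonin. Mrpl32 was paired with the proteasome gene Psma2, Mrpl51 with the condensin gene Ncapd2, Mrpl40 with the histone chaperone gene Hira and Mrpl57 with the kinetochore gene Ska3. Mrps18c shared its region with the DNA helicase gene Helq, Mrpl27 with Eme1 and Mrps34 with Eme2, the last 2 being partners of the nuclease Mus81. Mrps6 was the 1 gene whose neighbours all lay on the same strand, with the start of the inositol transporter gene Slc5a3 52 bp away.

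The pair Mrps11 and Mrpl46 was the only one in which both genes encode mitochondrial ribosomal proteins, of the small and the large subunit. Their common region on chromosome 7 had a fold of 14 over both libraries, 13.2 in replicate 1 and 13.3 in replicate 2. It makes 75 distinct regions out of the strongest promoter regions of the 76 genes. The whole stretch between their principal starts is shown because of its length of 29 bp, at chr7:78783090-78783118 on the plus strand, in the direction of Mrps11 and with no motif match.
Mrps11/Mrpl46: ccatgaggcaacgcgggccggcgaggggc

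Short sequence motifs of known promoter factors were counted within 100 bp of the strongest summit, on both strands. A match is a description of the letters and not a site of binding. Of 11 motifs searched, 3 had an interval over the 75 regions that lay wholly above the share at other promoters. The ETS core CCGGAAG was present at 25 of 75 regions, or 33.3% (exact 95% interval 22.9 to 45.2%), against 18.6% of 8753 other promoter regions. The NRF1 motif, GCGCA and GCGC with any base between them, named for a factor known to act on nuclear genes of mitochondrial proteins, was present at 17.3% (9.57 to 27.8%), against 9.53%. The YY1 core AAGATGG was present at 14.7% (7.56 to 24.7%), against 6.32%. The intervals are not adjusted for the number of motifs, and within 50 bp of the summit the NRF1 interval of 5.64 to 21.6% takes in the 5.71% of other promoters. None of the 3 motifs occurred in 33 of the 75 regions, or 44%, against 69.0% of other promoter regions. No region of these genes held all 3, and 7 (9.33%) held a pair of them, against 3.38% of other regions.

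For the other 8 motifs the interval took in the share at other promoters, which does not show that the shares are alike. The SP and KLF core GGGCGG was present at 53.3% of the regions (41.4 to 64.9%), against 64.5%, and the NFY motif CCAAT at 28% (18.2 to 39.6%), against 36.1%. Within 50 bp of the summit the NFY interval of 9.57 to 27.8% lay narrowly below the 27.9% of other promoters. The CRE core TGACGT was present at 10.7%, against 11.7%, the E-box CACGTG at 4.0%, against 8.32%, and the ZBTB33 core TCTCGCG at 4.0%, against 5.35%. The erythroid GATA motif AGATAA was present at 8.0% (2.99 to 16.6%), against 4.36%, and this direction turned within 50 bp of the summit, where the shares were 1.33% and 2.78%. The ZNF143 motif, ACTACA and TCCC with any pair of bases between them, was also at 8.0%, against 4.59%. The TATA box TATAAA was present at 1 region (1.33%), against 1.99%. Base composition around the summit was close, with a median G+C of 63.7% in the regions of mitochondrial ribosomal protein genes and 64.7% in other promoter regions, and CpG ratios of 0.856 and 0.829.

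**Figure D4:**
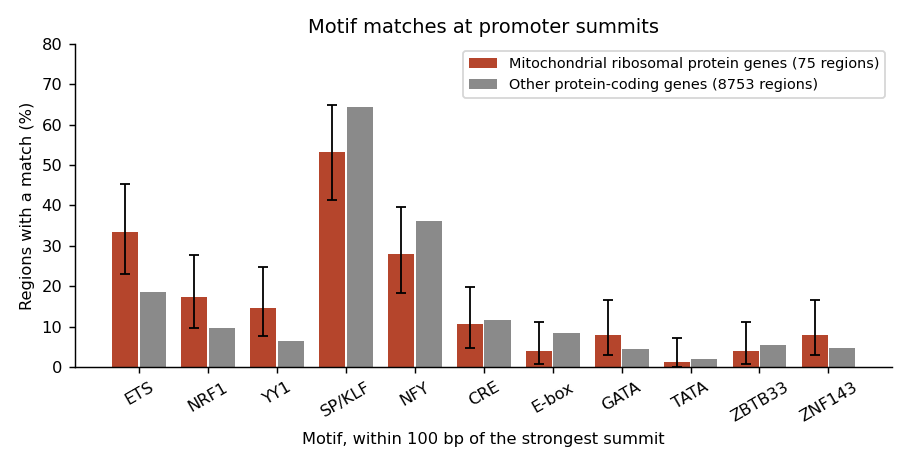
Share of promoter regions (%) with a match to each motif within 100 bp of the strongest summit, for the mitochondrial ribosomal protein genes (red, 75 regions, exact 95% intervals) and other protein-coding genes (grey, 8753 regions). The grey bar lies below the red interval for ETS (18.6%), for YY1 (6.32%) and, narrowly, for NRF1 (9.53%).

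The matches nearest to a summit are shown for the 3 motifs, 2 genes each, with the match in capitals and up to 20 bp of exon. The ETS matches are those of Mrps35 at chr6:147042687-147042783 on the plus strand and Mrpl20 at chr4:155803552-155803571 on the plus strand. The NRF1 matches are those of Mrpl14 at chr17:45686348-45686367 on the plus strand and Mrpl39 at chr16:84735355-84735374 on the minus strand. The YY1 matches are those of Mrps10 at chr17:47368897-47368916 and Mrps18a at chr17:46111008-46111027, both on the plus strand.
Mrps35: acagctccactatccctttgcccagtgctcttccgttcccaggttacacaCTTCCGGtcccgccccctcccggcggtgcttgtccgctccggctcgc
Mrpl20: aggcgccCCGGAAGacagtg
Mrpl14: ctggcGCGCAGGCGCagcgt
Mrpl39: gaggcGCGCATGCGCccccg
Mrps10: gggcaccAAGATGGcggcgc
Mrps18a: gcgttccAAGATGGcggccc
The YY1 matches of Mrps10 and Mrps18a both lie just downstream of the nearest start, centred 9 and 22 bp into the gene. Over the 12 genes with a YY1 match, the 13 matches ranged from -196 to 61 bp of the nearest start. Of these, 6 lay within 50 bp downstream and 4 between 100 bp upstream and the start. Over the 25 genes with an ETS match, the 31 matches lay at a median of 9 bp upstream of the nearest start, and 22 of them fell between 100 bp upstream and the start. Matches of both motifs were sought only within 100 bp of summits, which themselves sit close to starts. Positions at other promoters were not measured, so these positions are not shown to be particular to the motifs or the genes. Mrps18a held both an ETS and a YY1 match, as did Mrps10. The strongest promoter by fold, Mrps33, held an ETS and an NRF1 match beside the SP and KLF matches shown earlier. The weakest by fold, Mrps34, held 2 ETS matches, so the letters were present at both ends of the fold range.

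Distal regions were no more common near these genes than near others. At least 1 region outside promoters lay nearest to 18 of the 78 genes within 100 kb (23.1%, exact 95% interval 14.3 to 34%), against 25.1% of other protein-coding genes. The 22 regions amount to 0.282 per gene, against 0.510 in other genes. In replicate 1 there were 14 genes with one, against 18% of other genes, and in replicate 2 there were 13, against 16.9%. The conservative list gave 20 genes against 25.3% of others, the overlap list 29 against 42.2%, and the upper 50% of regions by fold 10 against 13.1%. Of the 22 regions, 15 were in both replicates' lists, 2 in 1 of them and 5 in neither. The same counts were not made for distal regions of other genes, so they do not show whether this split is usual. Nearness does not show which gene a region acts on.

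By place, 12 of the 22 regions lay in introns, 4 of them in an intron of the gene itself, 8 were intergenic and 2 lay in exons. Mrpl35, Mrpl46, Mrpl48 and Mrps28 had 2 each. The other 14 genes had 1 each: Mrpl11, Mrpl13, Mrpl17, Mrpl22, Mrpl38, Mrpl45, Mrpl52, Mrpl58, Mrps10, Mrps16, Mrps21, Mrps27, Mrps31 and Mrps36. The median fold was 7.79, against 6.50 for distal regions of other genes. A GATA match AGATAA lay within 100 bp of the summit in 4 of the 22 regions (18.2%, exact 95% interval 5.19 to 40.3%), against 26.8% of distal regions of other genes. These were regions near Mrpl17, Mrpl46, Mrpl48 and Mrpl52.

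A single distal region stood far above the others. It lay in an intron of Mrps27 at chr13:99352795-99353906, 7.81 kb from the nearest start, with a fold of 18.6 and a −log10 p of 264. Replicate 1 held it at 17.7 and replicate 2 at 17.1. Its fold was above that of 99.8% of all distal regions and above that of the promoter of Mrps27 itself, 15.8. The next were a region in an intron of Rab6a nearest to Mrpl48, with 11.6 over both libraries, 9.98 in replicate 1 and 11.2 in replicate 2, and an intergenic region near Mrps21, with 10.3 over both libraries, 9.67 in replicate 1 and 9.89 in replicate 2.

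The Mrps27 intron region also differed from the other distal regions in its bases. Within 100 bp of its summit it held 65.2% G+C and a CpG ratio of 0.893, against medians of 49.5% and 0.198 over the 22 regions and 51.2% and 0.228 over distal regions of other genes. A G+C of at least 50% with a CpG ratio of at least 0.6 was found in 3 of the 22 regions (13.6%), near Mrpl58, Mrps10 and Mrps27, against 5.66% of distal regions of other genes. By the definition of a distal region, which holds for all 22, the annotation places no transcription start within 1 kb of its midpoint. The 151 bp around its summit are shown because they hold 3 NFY matches, each as ATTGG on the printed strand, at chr13:99353288-99353438 on the plus strand.
Mrps27: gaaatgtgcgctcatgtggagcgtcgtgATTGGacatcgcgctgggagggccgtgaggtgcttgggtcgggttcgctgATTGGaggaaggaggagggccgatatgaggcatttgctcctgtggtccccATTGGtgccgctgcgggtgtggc

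**Figure D5:**
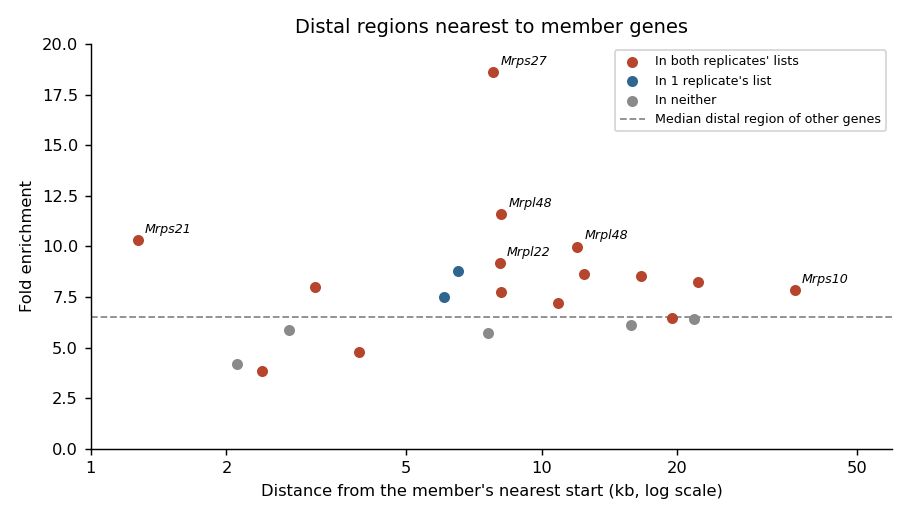
Fold enrichment of the 22 distal regions nearest to mitochondrial ribosomal protein genes against their distance from the gene's nearest start (kb, log axis), coloured by presence in the replicates' lists. The intron region of Mrps27 at 7.81 kb has a fold of 18.6, and the next highest, near Mrpl48, has 11.6; the dashed line is the median of distal regions of other genes, 6.50.

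Genes that work with the mitochondrial ribosome had open promoters at a like rate. Of 65 other genes of mitochondrial translation, 64 had a promoter region in the series list (98.5%), with a median fold of 12.2, and 63 had one in each replicate's list. These were all 5 ribosomal proteins with other names, all 24 genes of ribosome assembly and rRNA modification, 15 of 16 genes of translation factors and mRNA or nascent chain handling, and all 20 genes of aminoacyl-tRNA enzymes. The 1 without was Pdf, the mitochondrial peptide deformylase, which the overlap list held at a fold of 3.46. The strongest were Mterf4, which guides rRNA methylation, at 18.9, the RNA helicase gene Dhx30 at 18.6 and Gfm2, a factor of ribosome recycling, at 18.3. Ptcd3, a small-subunit protein, led those with other names at 15.3, and Rars2, the arginyl-tRNA synthetase, led the enzymes at 16.

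The cytosolic ribosome and the respiratory chain gave similar values, beside the same background of 45.6% in the series list. All 79 cytosolic ribosomal protein genes had a promoter region, with a median fold of 11.9, and Rpl11 was the highest at 16.2. Of 87 respiratory chain genes, 80 had one (92.0%), with a median of 12.3, and Atp5e was the highest at 18.7. The 7 without were Cox4i2, Cox6a2, Cox7b2, Cox8b, Cox8c and Ndufa4l2, most of which are known as forms of other tissues, and 1 gene entry named Atp5o. Some of these regions are shared with mitochondrial ribosomal protein genes, as at Ndufs6, Ndufb5 and Fau, so the lists are not independent. The 14 erythroid markers had lower promoter folds, with a median of 6.00 and a highest value of 9.36 at Epor. A CpG-rich start was present at 3 of these 14 genes, against 69 of the 79 cytosolic ribosomal protein genes. Whether that bears on the fold was not tested.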

How the data were processed

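The data are ATAC-seq peak lists of 2 libraries on mm10. The authors, per the deposited listing of files, made lists for each replicate and for both together, and kept peaks by IDR, a measure of how well peaks repeat, or by overlap between pseudoreplicates. Aligner, peak caller and Tn5 offset handling: not given in the sources used here. In the deposited lists the fold of a record is a ratio over local background, and the −log10 values are the authors' p values. The lists leave out read depth.

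Overlapping or touching records were joined into regions, with the fold of the strongest record. Starts came from GENCODE M21 on GRCm38.p6. A promoter region overlapped the 1 kb to each side of any start. A distal region had its midpoint outside these windows and was given to the gene with the nearest start, up to 100 kb. Shares carry exact (Clopper-Pearson) 95% intervals and medians an order-statistic interval. Python 3.11.15 with numpy 2.4.6 and scipy 1.17.1 was used, and the calling of regions and motifs was tested on simulated data.

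The genes and lists were chosen with earlier results of these data known, so no test of a list was made. Named were the 10 highest and 5 lowest promoters, genes without a region or with differing calls, genes with distal regions, the motif matches nearest to summits and, in other lists, genes without a region and the strongest. Genes named beside a shared promoter, a replicate gap or several regions were picked after their values were seen. The CpG-rich background was also added after the data were seen. Alternatives were other windows, lists, overlaps and starts, and each library alone. Also left out were 6 ranked or older lists.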

Additional observations from a re-analysis of the deposited data

How the results depend on the processing

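No paired analysis was possible because the 2 libraries form 1 group. Under the alternatives, 47 recalculated values stayed within 1.5 times the count, or within the interval of the value, in the report, and the 5 given here did not. With each library left out in turn, the number of genes with a promoter region was 75 both times, distal genes numbered 13 to 14, the median promoter fold was 10.6 to 10.7, shared promoters numbered 34 to 35, and 63 other mitochondrial translation genes had a promoter region. Genes with a promoter region numbered 76 with windows of 500 bp or 2 kb, against 44.9% and 46.9% of other genes. They numbered 73 when only the most upstream start counted, against 42.3% of other genes. Genes with a distal region numbered 29 in the overlap list, which holds more regions (42.2% of other genes) and 10 in the upper 50% by fold, which holds fewer (13.1% of other genes). With motifs counted within 50 bp of the summit, SP and KLF matches fell to 41.3% (49.1% at other promoters), NFY to 17.3% (27.9%) and GATA to 1.33% (2.78%), the narrower window holding fewer bases. The ETS, NRF1 and YY1 shares were 26.7%, 12% and 8.0% there, against 12.7%, 5.71% and 2.52% at other promoters. Peak lists do not give depth, so a missing region is a missing call and not a closed promoter.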

Other observations

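The absence of Mrps18c from the thresholded list of replicate 1 was set against all regions of that library. The overlap list of replicate 1 held 212 regions with a fold at least that of the Mrps18c region, 16.5, and 1 of them had no counterpart in the thresholded list, the Mrps18c region itself. In replicate 2, 2 of 191 regions of that fold had none. At a fold of 10 or more, 13 of 6310 regions of replicate 1 and 15 of 6005 of replicate 2 were missing from the thresholded list. Over all overlap-list regions, 13210 of 31801 were missing in replicate 1 and 12473 of 30252 in replicate 2. The cause was not tested.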
